A study of Mus musculus with 27 samples.

Results

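Neutrophils carry ready-made antimicrobial proteins, and 10 genes of that equipment were followed here through the mouse ovary. They are S100a8 and S100a9, whose proteins together form calprotectin, and Ngp, Camp, Ltf, Lcn2, Retnlg, Mmp8, Mmp9 and Cxcr2. The genes were chosen by symbol, and each matched 1 Ensembl identifier in the table of 51789 gene identifiers. The data were gene counts from 27 ovary libraries of polyA RNA, made with a kit that reads the 3′ ends of transcripts, in 2 experiments on young and aged mice. Experiment 1 held 5 libraries from young untreated, 4 from aged untreated and 4 from TRi-1-treated aged mice (TRi-1 blocks thioredoxin reductase 1). Experiment 2 held 5 libraries from young untreated, 5 from aged untreated and 4 from Auranofin-treated aged mice, Auranofin being a gold drug that blocks the same enzyme family. Not stated in the labels were strain, age in months, dose and duration, and no young mouse was treated. Library totals ran from 6460903 to 14814381 counts, and depth differed with age. In experiment 1 the totals were 6460903 to 10077161 in young and 9791693 to 14814381 in untreated aged libraries. In experiment 2 they were 6782228 to 9799253 and 10139429 to 14027986, without overlap.

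Neutrophils fill their granules in waves as they mature in the bone marrow. Azurophil proteases come early, then specific granule proteins such as lactoferrin and cathelicidin, then gelatinase granule enzymes, while calprotectin stays in the cytosol. In the ovary, leukocytes enter around ovulation and during breakdown of the corpus luteum. Lactoferrin and lipocalin 2 are also made by epithelium of the oviduct and uterus, tissues that lie next to the ovary.

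S100a8 (ENSMUSG00000056054) lies at chr3:90668978-90670035 on the plus strand of mm10, and S100a9 (ENSMUSG00000056071) at chr3:90692632-90695721 on the minus strand, 22.6 kb away. Camp (ENSMUSG00000038357), Ngp (ENSMUSG00000032484) and Ltf (ENSMUSG00000032496) share chromosome 9, with 570.1 kb between Camp and Ngp and 596.3 kb between Ngp and Ltf. No annotated gene overlapped any of the 10 (GENCODE M21). RefSeq promoter windows (GRCm38.p6, 250 bases before to 50 after the start) were found for 9 of the 10, all except Mmp9. The letters TTGCNNAA, a core of sites bound by C/EBP factors of the granulocyte lineage, were searched on both strands and were present in 6 of these 9 windows, against 10.8% of 32851 promoter windows. The search letters were chosen after the sequences had been seen. The 4 windows below are shown because S100a9 and Ngp varied together across the ovaries while Ltf and Lcn2 went another way, although all 4 hold these letters, in capitals.
S100a9: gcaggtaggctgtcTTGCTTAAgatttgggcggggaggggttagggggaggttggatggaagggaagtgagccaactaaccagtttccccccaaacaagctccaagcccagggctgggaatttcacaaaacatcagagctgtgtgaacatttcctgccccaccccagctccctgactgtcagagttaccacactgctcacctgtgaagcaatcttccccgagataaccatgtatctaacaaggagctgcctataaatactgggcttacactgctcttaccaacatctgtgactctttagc
Ngp: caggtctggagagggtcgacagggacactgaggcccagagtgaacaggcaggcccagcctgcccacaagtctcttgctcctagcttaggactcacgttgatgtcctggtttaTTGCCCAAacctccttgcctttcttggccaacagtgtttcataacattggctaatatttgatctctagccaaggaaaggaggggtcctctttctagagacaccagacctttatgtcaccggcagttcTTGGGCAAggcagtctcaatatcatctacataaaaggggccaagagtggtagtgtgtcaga
Ltf: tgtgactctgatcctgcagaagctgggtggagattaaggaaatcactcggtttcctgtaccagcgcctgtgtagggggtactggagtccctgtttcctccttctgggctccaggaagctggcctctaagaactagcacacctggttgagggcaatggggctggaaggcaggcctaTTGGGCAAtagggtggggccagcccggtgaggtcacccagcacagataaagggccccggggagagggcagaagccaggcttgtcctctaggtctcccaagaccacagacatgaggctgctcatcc
Lcn2: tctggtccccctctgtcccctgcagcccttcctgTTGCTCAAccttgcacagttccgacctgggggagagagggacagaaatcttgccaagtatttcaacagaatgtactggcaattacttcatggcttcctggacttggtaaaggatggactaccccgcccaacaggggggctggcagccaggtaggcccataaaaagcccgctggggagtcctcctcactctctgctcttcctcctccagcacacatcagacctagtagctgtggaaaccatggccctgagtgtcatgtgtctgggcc
The windows are chr3:90695672-90695971 (minus strand), chr9:110419558-110419857 (plus), chr9:111019042-111019341 (plus) and chr2:32387690-32387989 (minus). Ngp alone of these held 2 matches, beginning 138 and 11 bases before its start. The letters GAGGAAG of PU.1 sites were present in 3 of the 9 windows, against 13.63% of all, and TATAAA in 3 of 9, against 13.62%. The last letters searched, AGGTCA of nuclear receptor sites, were present in 3 of 9, against 16.26%.

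Before any comparison, 2 libraries were far lower than the rest in genes of ovarian steroid and inhibin production. In replicate 3 of the young mice of experiment 2, Inha, which encodes the inhibin subunit of granulosa cells, stood at 1.37 CPM and the steroidogenic enzyme gene Cyp11a1 at 3.19 CPM. Replicate 3 of the Auranofin mice had 3.14 and 0.27 CPM. The other 25 libraries ran from 9.95 to 515 CPM for Inha and from 39.8 to 1340 CPM for Cyp11a1. Foxl2, a transcription factor gene of granulosa cells, did not share this deficit. It stood at 39.0 CPM in the young library, above the 2.39 to 27.8 CPM of the other 25, and at 6.65 CPM in the Auranofin library. Sprr2f, a gene of uterine epithelium, showed the opposite order, at 2390 CPM in the young library and 289 CPM in the Auranofin library against 0 to 13.3 CPM elsewhere. The members' calls in experiment 2 are therefore given with and without this pair, a choice made after the data had been seen. Amh, a granulosa cell gene, had 1 count in all 27 libraries, and Fshr was at or near 0 throughout.

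The first comparison asks how the genes differ between aged and young ovaries. In both experiments the calprotectin genes rose steeply with age, and the gelatinase gene Mmp9 and the collagenase gene Mmp8 rose by smaller amounts. Ngp was also higher in aged ovaries, with a limit given below. In experiment 1, 7 of the 9 genes tested rose (edgeR quasi-likelihood test, Benjamini-Hochberg adjusted p under 0.05), where 34.9% of all genes tested were called in either direction, and Cxcr2 was too low to test. In experiment 2, 6 of 10 rose, against 10.5% of all genes called. Both counts include Ngp, and the second includes Camp. Ngp had no count in the young libraries of experiment 2 and none in 3 of the 5 of experiment 1. Camp had 26 counts over the young libraries of experiment 2. Neither would have passed the low-count filter there without aged libraries, so their places in these counts carry no weight. No member fell in either experiment. The median log2 fold change over the members tested was 2.17 in experiment 1 and 2.45 in experiment 2, where the medians over all genes tested were 0.022 and -0.031. The second median was the same with Ngp set at its lower bound.

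S100a8, a calcium-binding subunit of calprotectin, stood at 50.4, 17, 8.51, 42.9 and 3.06 CPM in the young ovaries of experiment 1 and at 666, 372, 1240 and 672 CPM in the aged. Experiment 2 gave 1.40, 1.52, 6.38, 3.20 and 3.65 CPM in young and 589, 1200, 2050, 192 and 256 CPM in aged ovaries. In both experiments every aged library exceeded every young one. The log2 fold change of S100a8 was 4.92 ± 0.83 (standard error; adjusted p = 0.000296), or 30.3-fold, in experiment 1 and 8.04 ± 0.88 (adjusted p = 0.000103) in experiment 2.

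S100a9, the partner subunit, had 12.9, 4.02, 0.740, 29.1 and 1.75 CPM in young and 244, 256, 650 and 459 CPM in aged ovaries of experiment 1. In experiment 2 it had 2.20, 1.38, 5.70, 1.46 and 1.27 CPM in young and 475, 616, 1590, 98.0 and 146 CPM in aged ovaries. Again the ages did not overlap. Its log2 fold change was 5.36 ± 0.95 (adjusted p = 0.000468) in experiment 1 and 7.92 ± 0.86 (adjusted p = 9.08e-05) in experiment 2. Together the calprotectin genes took 0.000438% to 0.00645% of all counts in young ovaries of experiment 1 and 0.0557% to 0.165% in aged ones. The corresponding shares in experiment 2 were 0.000310% to 0.00134% and 0.0307% to 0.423%.

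Ngp, a cathelicidin-related protein of specific granules, was at 0.904, 0, 0, 3.70 and 0 CPM in the young ovaries of experiment 1 and at 19.7, 16.4, 44.6 and 26.8 CPM in the aged. In experiment 2 no young library held a count, and the aged had 1.87, 20.5, 41.0, 1.17 and 11.7 CPM. Every aged library exceeded every young one in both experiments, though aged replicates 1 and 4 of experiment 2 were close to 0. The log2 fold change was 4.74 ± 1.12 (adjusted p = 0.00391) in experiment 1. In experiment 2 Ngp passed the test (adjusted p = 0.00647), and with 3 counts set as the floor over the young group it was at least 244-fold higher in aged ovaries. In that experiment limma-voom with quality weights did not call it (adjusted p = 0.206).

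Camp, which encodes the antimicrobial cathelicidin peptide, ran at 6.66, 1.70, 0, 5.97 and 0 CPM in young and 5.54, 15.2, 25.8 and 23.6 CPM in aged ovaries of experiment 1. The ranges overlapped, and the log2 fold change of 2.57 ± 1.02 missed the threshold (adjusted p = 0.0606). It passed without aged replicate 1 (adjusted p = 0.0484). In experiment 2 Camp had 0.1, 0, 0.570, 0.388 and 1.36 CPM in young and 2.97, 17.9, 46.0, 0.992 and 10.1 CPM in aged ovaries. It rose by 4.89 ± 1.13 (log2, adjusted p = 0.0113), with aged replicate 4 inside the young range, and limma-voom did not call it (adjusted p = 0.343).

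**Figure D1:**
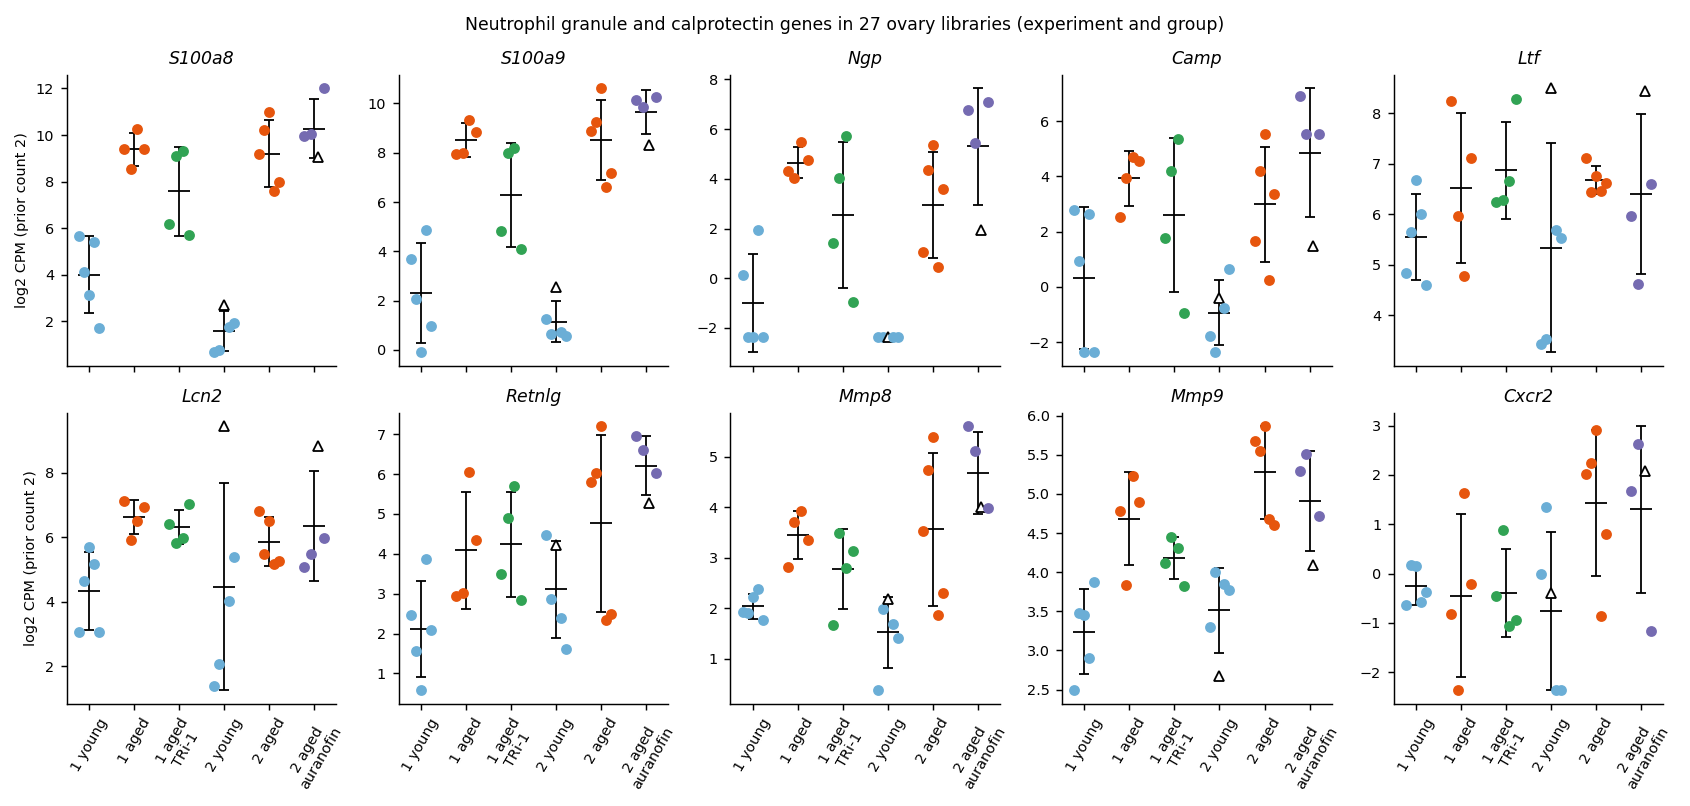
Level of each gene in every library as log2 CPM (prior count 2), by experiment and group; points are libraries, bars are mean ± SD, and open triangles are the 2 libraries low in ovarian genes. S100a8 and S100a9 separate aged from young ovaries in both experiments, whereas for Ltf and Lcn2 the triangles are the highest points of their groups.

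Mmp8, the neutrophil collagenase, had 3.61, 3.56, 4.44, 5.01 and 3.20 CPM in young and 6.89, 12.8, 15 and 9.98 CPM in aged ovaries of experiment 1. In experiment 2 it had 1.10, 3.74, 4.33, 3.01 and 2.46 CPM in young and 11.4, 26.5, 41.7, 3.43 and 4.75 CPM in aged ovaries. The ages were apart in experiment 1, and in experiment 2 aged replicate 4 lay within the young range. Mmp8 rose by 1.5 ± 0.36 (log2, adjusted p = 0.00416) and by 2.58 ± 0.64 (adjusted p = 0.0163). The second call was lost without aged replicate 3 (1.97, adjusted p = 0.0526) and under limma-voom (adjusted p = 0.0947).

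Mmp9, or gelatinase B, is the enzyme of the gelatinase granules. Its levels were 5.42, 11, 10.7, 7.28 and 14.4 CPM in young and 27.3, 14.1, 37.4 and 29.5 CPM in aged ovaries of experiment 1. In experiment 2 they were 9.61, 15.8, 6.16, 14.2 and 13.5 CPM in young and 51.0, 46.4, 58.3, 25.4 and 24.1 CPM in aged ovaries. Only aged replicate 2 of experiment 1 reached into a young range. The increase was 1.48 ± 0.31 (log2, adjusted p = 0.00147) in experiment 1 and 1.79 ± 0.35 (adjusted p = 0.00384) in experiment 2.

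Retnlg, a resistin-like protein secreted by neutrophils, had 5.31, 2.79, 1.30, 14.3 and 4.08 CPM in young and 7.51, 7.85, 65.7 and 20.0 CPM in aged ovaries of experiment 1. In experiment 2 it had 21.9, 7.06, 18.5, 5.05 and 2.89 CPM in young and 55.5, 64.6, 148, 4.87 and 5.41 CPM in aged ovaries. The ages overlapped in both. The log2 fold change of 2.17 ± 0.73 in experiment 1 passed the test (adjusted p = 0.0292). That call was lost on leaving out any of young replicates 1, 2, 3 and 5 (adjusted p = 0.0615, 0.0682, 0.0584 and 0.0625) or aged replicate 3 (1.04, adjusted p = 0.255), and under limma-voom (adjusted p = 0.0763). In experiment 2 the change of 2.32 ± 0.81 did not pass (adjusted p = 0.0837), but did without aged replicate 4 (adjusted p = 0.0437) or aged replicate 5 (adjusted p = 0.0431).

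Cxcr2, the chemokine receptor that draws neutrophils into tissue, was the lowest in counts, at 0.452 to 0.929 CPM in young and 0 to 2.90 CPM in aged ovaries of experiment 1. In experiment 2 it had 0.801, 2.35, 0.570, 0 and 0 CPM in young and 3.88, 4.57, 7.30, 0.361 and 1.56 CPM in aged ovaries. With 30 counts over the young and 223 over the aged libraries, the log2 fold change of 2.27 ± 1.07 did not pass the test (adjusted p = 0.216).

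Ltf and Lcn2 followed another pattern. Ltf, or lactoferrin, the iron-binding protein of specific granules, had 28.3, 49.8, 102, 64.0 and 24.0 CPM in young and 301, 62.4, 27.4 and 138 CPM in aged ovaries of experiment 1. Its change of 1.30 ± 0.60 (log2) did not pass the test (adjusted p = 0.102), but did without young replicate 3 (1.69, adjusted p = 0.0484) or aged replicate 3 (1.60, adjusted p = 0.0349). In experiment 2 Ltf had 10.6, 11.4, 363, 51.4 and 45.9 CPM in young and 138, 87.0, 109, 87.6 and 98.8 CPM in aged ovaries. The young library low in ovarian genes was the highest of the 10, and the log2 fold change was 0.11 ± 0.83 (adjusted p = 0.960).

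Lcn2, or lipocalin 2, which withholds iron by binding bacterial siderophores, had 8.25, 25.1, 52.2, 36.1 and 8.16 CPM in young and 140, 60.6, 91.4 and 122 CPM in aged ovaries of experiment 1. The ages did not overlap, and it rose by 2.01 ± 0.47 (log2, adjusted p = 0.00341), a call lost when all 27 libraries shared 1 fit (adjusted p = 0.152). In experiment 2 it had 2.40, 4.01, 704, 15.9 and 41.6 CPM in young and 113, 45.0, 91.6, 36.1 and 38.5 CPM in aged ovaries. With all libraries its log2 fold change was -1.24 ± 1.19 (adjusted p = 0.595).

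Leaving out the 2 libraries low in ovarian genes turned the sign of Lcn2 with age in experiment 2 to 1.99 ± 0.67, which did not pass the test (adjusted p = 0.0688). Ltf then rose by 1.77 ± 0.49 (log2, adjusted p = 0.0287), so 7 of 10 members rose, against 12.3% of all genes called. Ngp and Camp are in this count with the limit given above. The other calls were as before, with Retnlg (2.55 ± 0.89, adjusted p = 0.0801) and Cxcr2 (2.20 ± 1.19, adjusted p = 0.276) again not passing. Camp stood at 4.88 ± 1.10 (adjusted p = 0.00929), Mmp8 at 2.74 ± 0.70 (adjusted p = 0.0190), Mmp9 at 1.60 ± 0.31 (adjusted p = 0.00348), and Ngp passed as before (adjusted p = 0.00407). S100a8 and S100a9 moved little, to 8.39 ± 0.92 (adjusted p = 9.77e-05) and 8.49 ± 0.87 (adjusted p = 6.25e-05). Over both experiments in 1 fit, 7 of 10 members rose, against 35.3% of all genes called. Without that pair 9 of 10 rose, against 36.8%. Ngp is in both counts with the limit given above. Cxcr2 (1.42, adjusted p = 0.139) passed only without young replicate 2 of experiment 2 (1.96, adjusted p = 0.0448). In the fit of both experiments Lcn2 went from 0.38 ± 0.70 (adjusted p = 0.713) to 2.01 ± 0.43 (adjusted p = 0.000669) and Ltf from 0.71 ± 0.56 (adjusted p = 0.347) to 1.55 ± 0.42 (adjusted p = 0.00525). Without the young library alone the values were 2.00 (adjusted p = 0.00383) and 1.55 (adjusted p = 0.0122).

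**Figure D2:**
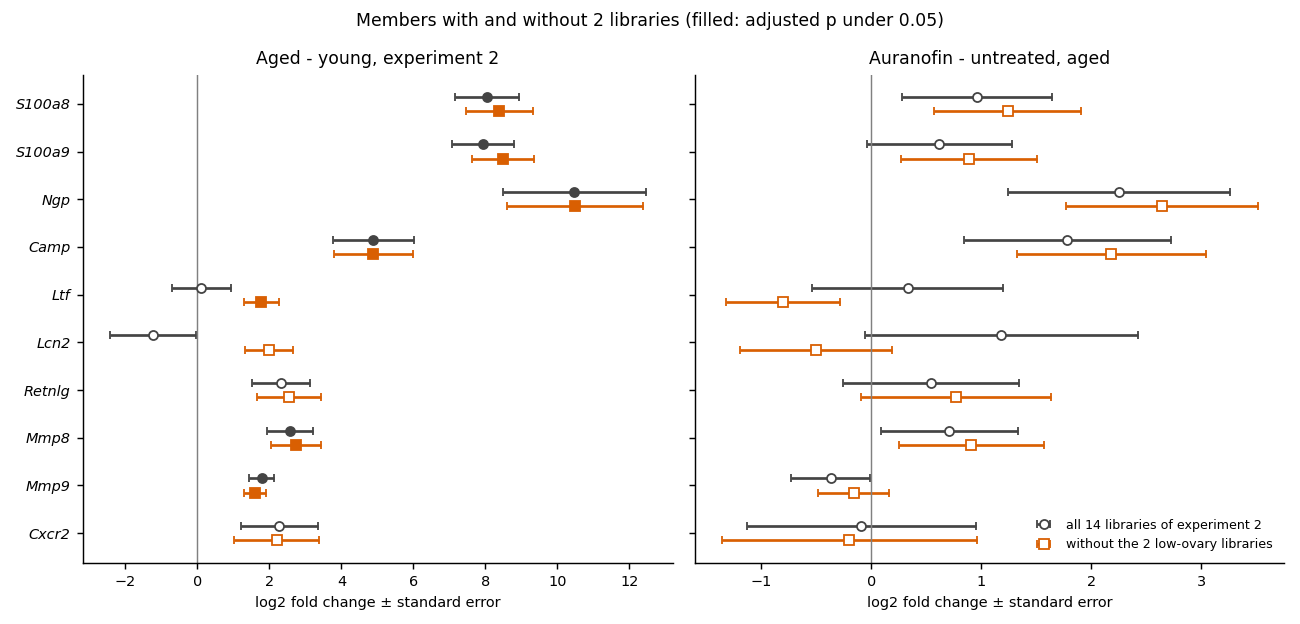
Log2 fold changes ± standard error in experiment 2 with all 14 libraries (circles) and without the 2 libraries low in ovarian genes (squares), for age and for Auranofin; filled symbols have an adjusted p under 0.05. Lcn2 and Ltf shift between the fits, from -1.24 to 1.99 and from 0.11 to 1.77 with age, while S100a8 stays near 8.

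Counted library by library, the aged ovaries lay wholly above the young for 5 of the 9 members tested in experiment 1. These were S100a8, S100a9, Lcn2, Mmp8 and, with the limit given above, Ngp. Of all genes tested, 27.5% did not overlap in either direction. In experiment 2 the aged lay wholly above the young for 4 of 10 (S100a8, S100a9, Mmp9 and, with the same limit, Ngp), against 11.1%. The age effects were also tested against each other. None of the 10 differed between experiments after adjustment, where 0% of all genes were called and 2067 genes had an unadjusted p under 0.05. Of the members, 3 had an unadjusted p under 0.05. The estimated difference, experiment 2 minus experiment 1, was 3.13 ± 1.13 for S100a8 (log2, adjusted p = 0.259) and 2.58 ± 1.21 for S100a9 (adjusted p = 0.400), and the Lcn2 difference of -3.24 ± 1.41 (adjusted p = 0.358) became 0.01 without the low-ovary pair.

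Other neutrophil gene lists were counted against the same shares of all genes called in either direction. These were 34.9% in experiment 1 and 10.5% in experiment 2. Of the receptors and surface proteins of mature neutrophils, 12 of 12 tested rose with age in experiment 1 (median log2 fold change 3.18) and 13 of 15 in experiment 2 (4.18). The 4 listed genes not tested in experiment 1 (Csf3r, Ly6g, Trem3 and Mrgpra2b) were too low. Cxcr1 in experiment 1 and Mrgpra2b in experiment 2 are in these counts but had no young count. They passed the low-count filter through aged libraries alone, so they carry no weight there. Csf3r, with 8 counts over the young libraries of experiment 2, has the same limit. How many other listed genes share it was not counted. Clec4e, a receptor for mycobacterial cord factor, rose by 6.79 ± 1.06 (log2, adjusted p = 0.00016) and 8.46 ± 1.16 (adjusted p = 0.00045). Its mean over all 27 libraries was 15.3 CPM, so changes of this size place its young level below the low-count filter. Clec4e therefore has the same limit as Csf3r, in both experiments. Fpr2, a formyl peptide receptor, rose by 3.03 ± 0.69 (adjusted p = 0.00308) and 4.58 ± 0.69 (adjusted p = 0.000808). All 6 genes of the phagocyte NADPH oxidase rose in both experiments, its catalytic subunit gene Cybb by 3.86 ± 0.37 (adjusted p = 4.63e-06) and 3.01 ± 0.45 (adjusted p = 0.000791). Other granule cargo rose for 7 of 9 genes in experiment 1 and 2 of 10 in experiment 2, with lysozyme (Lyz2) called in both, and azurophil granule genes for 2 of 3 and 1 of 4. Further neutrophil-enriched genes rose for 8 of 11 and 9 of 16. The limit of genes with no young count holds for Stfa3 and Il1f9 in the first count. It holds for Stfa1, Stfa2 and Stfa2l1 in the second. Ly6g, the surface marker used to sort mouse neutrophils, did not follow the granule genes in experiment 1, at 0 to 0.955 CPM in young and 0 to 1.01 CPM in aged libraries. In experiment 2 its highest level, 11.5 CPM, was in the young library low in ovarian genes, above every aged library. The other young libraries of that experiment had 0 to 0.4 CPM of Ly6g, and the untreated aged had 0 to 5.35 CPM. Csf3r, the G-CSF receptor, had no count in the 5 young ovaries of experiment 1 and 49 counts in the 4 aged.

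Among chemokines, cytokines and growth factors that draw or sustain neutrophils, 7 of 10 tested rose in experiment 1. In experiment 2, 6 of 10 rose. Cxcl12, the highest of those tested in mean CPM, rose in experiment 1 (1.22 ± 0.18, adjusted p = 0.000128). It did not pass in experiment 2 (0.63 ± 0.28, adjusted p = 0.174). Il1b rose by 6.44 ± 0.69 (log2, adjusted p = 8.75e-06) and 6.52 ± 0.75 (adjusted p = 0.000133), and the chemokine gene Cxcl5, a ligand of the Cxcr2 receptor, by 4.44 ± 0.78 (adjusted p = 0.000447) and 6.66 ± 0.72 (adjusted p = 9.08e-05). The Cxcl5 mean over all 27 libraries was 16.8 CPM, which places its young level in experiment 2 below the low-count filter. That call therefore has the limit given above for Csf3r. Whether Il1b, or Cxcl5 in experiment 1, would have passed the filter without aged libraries was not examined. Of 10 genes for receptors and adaptors reported for calprotectin, 5 rose in experiment 1 and 2 in experiment 2. Of all genes tested, 2958 of 16028 rose in experiment 1 and 956 of 16309 in experiment 2. Cd14, a co-receptor of Tlr4, was called in both, at 2.44 ± 0.61 (adjusted p = 0.00536) and 3.50 ± 0.74 (adjusted p = 0.00677). Bsg, the highest of these 10 in mean CPM, was called in neither, at 0.14 ± 0.17 (adjusted p = 0.576) and 0.01 ± 0.17 (adjusted p = 0.974). Of 9 transcription factor genes on a list for myeloid cells, 4 rose in each experiment (Spi1, Irf8, Cebpb and Cebpd), and Cebpz fell in experiment 1 (-1.40 ± 0.20, adjusted p = 8.73e-05). Among 6 inhibitors of the metalloproteinases, 3 rose in experiment 1 and Timp1 alone in experiment 2, by 2.06 ± 0.53 (adjusted p = 0.0210).

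Markers of other blood cells were counted in the same way. Macrophage markers rose for 6 of 8 genes in each experiment. Their summed level ran from 324 to 590 CPM in young and 3430 to 5580 CPM in aged ovaries of experiment 1, and from 307 to 703 and 1470 to 3800 CPM in experiment 2. General leukocyte genes rose for 6 of 6 in each, from 68.2 to 105 CPM in young to 423 to 636 CPM in aged ovaries of experiment 1 and from 102 to 129 to 477 to 838 CPM in experiment 2. Red cell genes rose for 6 of 6 in experiment 1, where their sum was 18400 to 90300 CPM in young and 109000 to 283000 CPM in aged ovaries, and for 1 of 6 in experiment 2, at 2410 to 48900 and 11200 to 47400 CPM. Monocyte markers rose for 5 of 8 genes in each experiment (Vcan fell in experiment 1), those of eosinophils and mast cells for 5 of 7 and 3 of 8, and those of platelets for 3 of 4 and 2 of 4. The part of these cells, and of blood left in the tissue, in the member changes was not tested. In whole tissue, fewer cells of a type and less RNA per cell cannot be told apart.

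The second question is whether TRi-1 changed these genes in aged ovaries. None of the 9 members tested passed, where 0.418% of all genes were called, and none had an unadjusted p under 0.05. DESeq2 and limma-voom called none either. Of the 9 estimates 8 were negative, with a median of -0.60 (all genes: -0.003). For none of the 9 did the TRi-1 and untreated aged libraries separate, against 9.08% of all genes tested.

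S100a8 had 71.4, 553, 634 and 52.8 CPM under TRi-1, and S100a9 had 27.8, 252, 293 and 17 CPM. For both, replicates 2 and 3 lay within the untreated aged range and replicates 1 and 4 below it. The log2 fold change was -1.19 ± 0.78 for S100a8 (95% interval -2.83 to 0.46, adjusted p = 0.477) and -1.47 ± 0.88 for S100a9 (-3.33 to 0.39, adjusted p = 0.425). Ngp repeated the order, with 2.47, 16.4, 52.5 and 0.325 CPM, as did Camp with 3.22, 18.0, 40.4 and 0.325 CPM. Their changes were -0.61 (95% interval -2.69 to 1.47, adjusted p = 0.812) and -0.21 (-2.34 to 1.93, adjusted p = 0.950).

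The metalloproteinases had the smallest errors. Mmp8 stood at 3.00, 11, 6.76 and 8.57 CPM under TRi-1 (-0.62, 95% interval -1.41 to 0.17, adjusted p = 0.425), and Mmp9 at 17.2, 21.6, 19.7 and 14 CPM (-0.60, -1.27 to 0.08, adjusted p = 0.362). Retnlg had 11, 29.6, 52.0 and 6.94 CPM (-0.04, -1.60 to 1.51, adjusted p = 0.992). Ltf had 75.4, 78.1, 101 and 311 CPM, with replicate 4 high, and Lcn2 had 85.1, 56.7, 63.5 and 131 CPM. Their changes were 0.08 (95% interval -1.24 to 1.41, adjusted p = 0.971) and -0.32 (-1.34 to 0.70, adjusted p = 0.795). Cxcr2 ran from 0.285 to 1.66 CPM. TRi-1 replicate 4, lowest in S100a8, S100a9 and Ngp and highest in Ltf and Lcn2, also had the highest summed epithelial level of its group, at 3350 CPM against 1440 to 1850 CPM, a part that was not tested.

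For Auranofin, none of the 10 members passed, where 0.0184% of all genes were called, and 1 (Ngp) had an unadjusted p under 0.05. DESeq2 and limma-voom called none. The estimates were positive for 8 of 10, with a median of 0.66 (all genes: 0.021), and for no member did the groups separate, against 3.53% of all genes tested.

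S100a8 had 987, 1060, 525 and 4180 CPM under Auranofin, and S100a9 had 1120, 938, 321 and 1240 CPM. Replicate 4 held the highest S100a8 level of all 27 libraries, while the other 3 lay within the untreated aged range. The changes were 0.96 ± 0.68 (95% interval -0.48 to 2.41, adjusted p = 0.824) and 0.62 (-0.79 to 2.02, adjusted p = 0.896), and the S100a8 value was 0.00 without replicate 4. Ngp had 110, 42.9, 3.68 and 136 CPM and Camp had 120, 45.9, 2.61 and 45.5 CPM, with replicate 3 low for both. Their changes were 2.25 ± 1.01 (95% interval 0.05 to 4.45, adjusted p = 0.690) and 1.78 ± 0.94 (-0.23 to 3.78, adjusted p = 0.751).

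Retnlg had 123, 97.1, 38.5 and 64.5 CPM under Auranofin (0.54, 95% interval -1.17 to 2.24, adjusted p = 0.926), and Mmp8 had 48.7, 34.5, 15.9 and 15.6 CPM (0.71, -0.60 to 2.02, adjusted p = 0.868). Mmp9 had 39.1, 45.5, 16.9 and 26.2 CPM (-0.37, -1.13 to 0.39, adjusted p = 0.886), and Cxcr2 had 3.00, 5.95, 4.04 and 0.250 CPM (-0.09, adjusted p = 0.993). Ltf had 62.6, 24.4, 348 and 96.3 CPM and Lcn2 had 34.0, 44.5, 457 and 62.5 CPM. The high replicate 3 was the library low in ovarian genes. Without the low-ovary pair Ltf turned from 0.33 to -0.80 ± 0.52 (adjusted p = 0.761) and Lcn2 from 1.18 to -0.50 ± 0.69 (adjusted p = 0.910), and still 0 of 10 members were called, against 0.0179% of all genes.

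**Figure D3:**
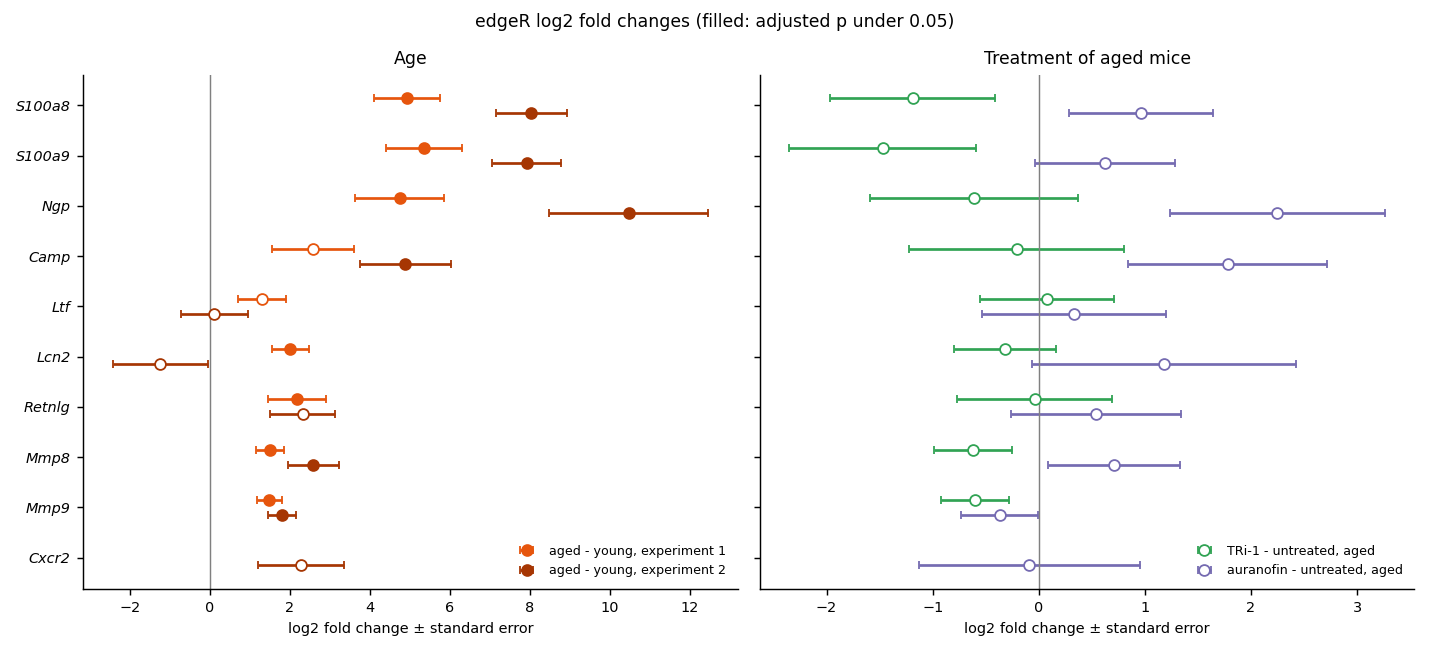
Log2 fold changes ± standard error (edgeR) for age in both experiments (left) and for TRi-1 and Auranofin in aged mice (right); filled points have an adjusted p under 0.05, and Cxcr2 was not tested in experiment 1. All filled points lie in the age panel, and every treatment point is open; Ngp in experiment 2 was fitted against young libraries at 0.

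The treated aged ovaries were also set against the young, a comparison that shares its young libraries with the age comparison. TRi-1 ovaries had 6 of 9 members higher than young, against 21.0% of all genes called. S100a8 was higher by 3.74 ± 0.79 (log2, adjusted p = 0.00300) and S100a9 by 3.90 ± 0.90 (adjusted p = 0.00553), where untreated aged ovaries gave 4.92 and 5.36. Ngp (with the limit given above), Retnlg, Lcn2 and Mmp9 were the others called. Without TRi-1 replicate 3 the count was 3, with Ngp lost (2.67, adjusted p = 0.1). Retnlg and Mmp9 sat at the threshold (adjusted p = 0.0474 and 0.0495) and were easily lost. Retnlg no longer passed without any of young replicates 1, 2, 3 and 5 or TRi-1 replicates 2 and 3, nor Mmp9 without any of young replicates 1 to 4 or TRi-1 replicates 1 to 3. Mmp8 passed without TRi-1 replicate 1 (adjusted p = 0.0295) and Camp without TRi-1 replicate 4 (adjusted p = 0.0436). Auranofin ovaries had 7 of 10 members higher, against 8.98% of all genes called. S100a8 was higher by 9.0 ± 0.93 (adjusted p = 7.01e-05) and S100a9 by 8.54 ± 0.89 (adjusted p = 7.55e-05), where untreated aged ovaries gave 8.04 and 7.92. Camp was also called, as was Ngp, at least 1170-fold higher against the floor of 3 counts over the young group. Both are in the count with the same limit as above. Neither was called by limma-voom (adjusted p = 0.108 for Camp and 0.0789 for Ngp), and Lcn2 was called only without young replicate 3 (3.22, adjusted p = 0.0394). Retnlg (adjusted p = 0.0461) no longer passed without any of young replicates 1, 2, 4 and 5 or Auranofin replicates 1, 2 and 4, nor Mmp9 (adjusted p = 0.0211) without young replicate 1 or Auranofin replicates 1 or 2. Without the low-ovary pair the same 7 members were called, against 11.3% of all genes, with S100a8 at 9.63 ± 0.98 (adjusted p = 6.33e-05), Retnlg at 3.31 ± 0.97 (adjusted p = 0.0415) and Mmp9 at 1.44 ± 0.33 (adjusted p = 0.0134). The difference between the treatment effects passed for none of the 10 members, against 0.0172% of all genes. None of the 10 had an unadjusted p under 0.05 there, and the estimates ran from 0.22 to 2.84 higher under Auranofin. Agent and experiment cannot be told apart in it.

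Among the 17 aged libraries, treated and untreated, the members divided into sets that varied together. Levels were centred on their group means, so these correlations describe variation between ovaries of the same group, and the genes share libraries. S100a8 and S100a9 correlated with r = 0.94, and Ngp and Camp with r = 0.96. Retnlg correlated with S100a9 at 0.88 and with Mmp9 at 0.83. Ltf and Lcn2 correlated with each other at 0.73 and with Camp at -0.57 and -0.55. As ratios of counts within a library, which are not ratios of transcript abundance, S100a8 to S100a9 had a median of 1.68 in aged untreated ovaries of experiment 1 and 1.75 in those of experiment 2. Counts of Ngp and Camp per 1000 calprotectin counts ranged from 4.55 to 54.1 among untreated aged ovaries of experiment 2 and from 7.43 to 109 under Auranofin.

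**Figure D4:**
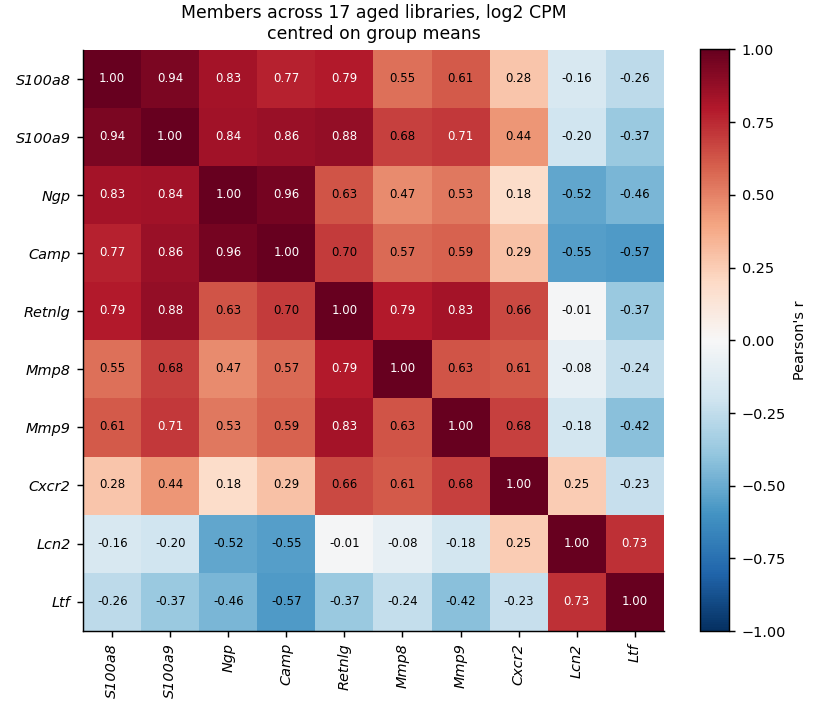
Pearson's r between members over 17 aged libraries, from log2 CPM centred on group means. S100a8, S100a9, Ngp and Camp form a block at 0.77 to 0.96, and Ltf and Lcn2 (r = 0.73) have negative or low values with the rest.

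The level of epithelial genes of the oviduct and uterus moved with Ltf and Lcn2. Over the 17 aged libraries, centred on group means, Ltf correlated with the summed level of 12 such genes at r = 0.84 (Spearman's rho 0.72), and at 0.73 without the 2 libraries farthest on the epithelial axis. Within experiment 1 (8 libraries) r was 0.85, and within experiment 2 (9 libraries) it was 0.86. Lcn2 gave r = 0.76 (rho 0.60), 0.43 without those 2 libraries, 0.88 in experiment 1 and 0.76 in experiment 2. S100a9 gave r = -0.57 (rho -0.53). Epithelium was not the only list that varied with these genes. With the summed macrophage markers Lcn2 gave r = -0.75 (-0.65 without the 2 libraries farthest on that axis) and Ltf -0.46. With the neutrophil receptors Ltf gave r = -0.61 and Lcn2 -0.16, and with red cell genes -0.15 and -0.32. Of the 12 genes, Ovgp1 made up a large and varying part of the sum. It was 2240 of 3350 CPM in TRi-1 replicate 4 and 380 of 1790 CPM in aged replicate 3 of experiment 1. In Auranofin replicate 3 it was 1170 of 3060 CPM. Correlations without Ovgp1 were not computed. The epithelial sum itself ran from 1610 to 4010 CPM in young and from 1790 to 3020 CPM in aged ovaries of experiment 1, with 2 of the 12 genes called higher with age (Krt7 and Krt8). In experiment 2 it ran from 1510 to 7120 and from 1580 to 2210 CPM, with 0 of 12 called. The part of epithelium in the Ltf and Lcn2 values was not tested.

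**Figure D5:**
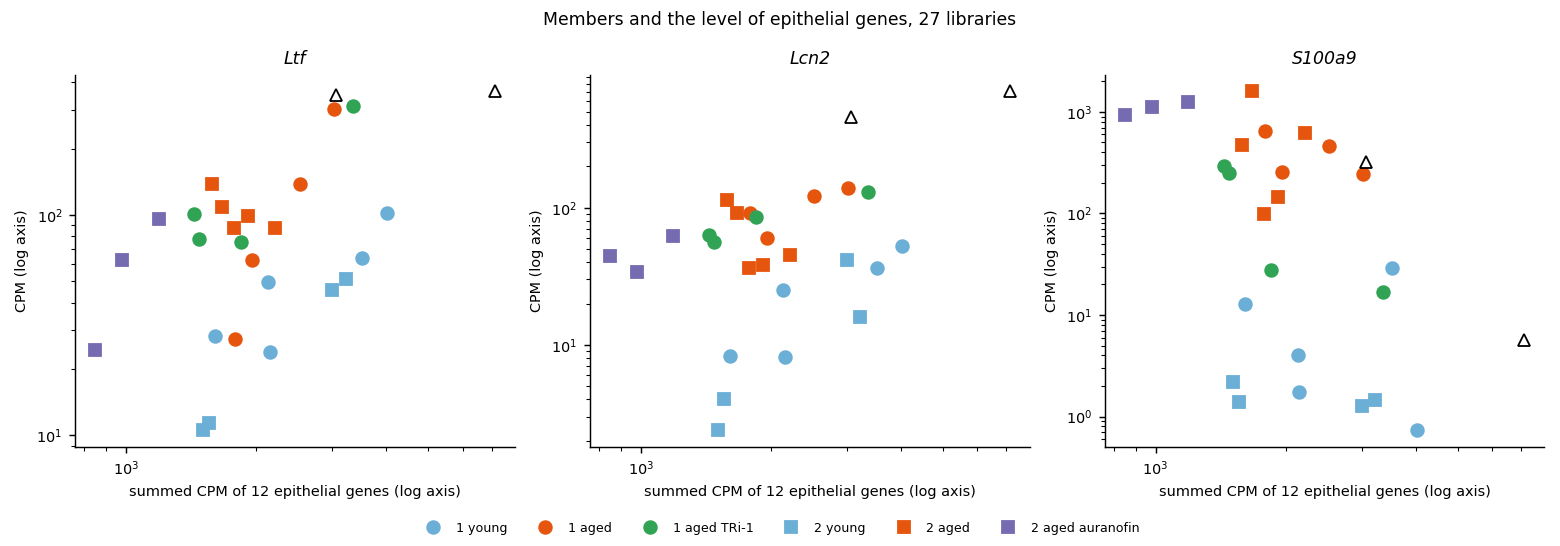
Level of Ltf, Lcn2 and S100a9 (CPM, log axis) against the summed level of 12 epithelial genes (CPM, log axis) in 27 libraries, coloured by group; circles are experiment 1, squares experiment 2, and open triangles the 2 libraries low in ovarian genes. Ltf and Lcn2 are highest in the triangles, and S100a9 follows age instead.

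The genes most like the members were ranked by correlation with the mean centred log2 CPM of the 10 over the same 17 libraries, among 15116 genes. Members held ranks 1, 2, 3, 6, 7, 10 and 11, but the mean includes each of them. Cxcr2 ranked 126, Lcn2 9705 (r = -0.09) and Ltf 13057 (r = -0.28). Of the genes outside the list, Mus81, an endonuclease of DNA repair, came first at r = 0.88 (rho 0.86, and 0.80 without the 2 farthest libraries). Ly6g followed at 0.84, and Chil3, a chitinase-like protein of myeloid cells, at 0.78. Next were Wipf3 (0.77), BC049730 (0.76), Ttll3 (0.76), Selenon (0.75) and Gm12122 (0.75).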

How the data were processed

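Counts per gene were deposited for 27 ovary libraries, each labelled as a replicate of 1 of 6 groups. Per the labels' protocols, RNA was purified on RNeasy columns, treated with DNase I and made into libraries with a Lexogen QuantSeq kit. RSEM 1.2.3, DESeq2 and mm10 appear in the submitters' processing notes without roles. The deposited counts are whole numbers and were used as deposited. Reads of 3′ ends do not scale with transcript length, and levels were compared between libraries. Ratios of counts of different genes describe a library and were not read as relative abundance. Floors cover counting error only. The labels number the replicates without saying that each is a separate animal, so p-values measure the spread between libraries, which may be technical.

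Symbols came from GENCODE M21, which matched 51596 of 51789 identifiers. Counts were tested with edgeR 4.0.16 in R 4.3.3: TMM factors, filterByExpr by group (minimum count 10), 1 mean per group, and the quasi-likelihood F test with Benjamini-Hochberg adjustment over all genes tested. Each experiment was fitted alone (13 and 14 libraries), and all 27 together for age over both experiments and for differences between effects. Standard errors were derived from the log2 fold change and its F value. CPM used TMM-scaled totals over 27 libraries. The fits were tested on simulated data. Alternatives were RLE factors, DESeq2 1.42.0, limma-voom (limma 3.58.1) with quality weights, other filters, other sets of libraries, a replicate block, and leaving out single libraries. A further fit without the 2 libraries low in ovarian genes was added after seeing the data. The members and gene lists were chosen with earlier results of these data known. Besides the members, text names were taken from the up to 4 genes of a list with the highest mean CPM, and the 8 genes most like the members. Ovarian and epithelial genes of the label check, Ly6g, Csf3r, Spi1 and the list members named beside a count were chosen after their values were seen. No libraries were copies: chi-square per gene within groups was 16.5 to 178 over 48 pairs. Python 3.11.15 and matplotlib 3.10.9 made the plots.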

Additional observations from a re-analysis of the deposited data

Results flagged for a closer look

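Each member in each group of 4 or 5 libraries, 60 groups in all, was examined for a single library far from the others. For normally distributed values, chance alone trips this check in about 1 in 20 groups. CPM was used untransformed, so that rate need not hold here. The check marked 7 values. The 4 for Ltf and Lcn2 were the highest libraries of their groups. Ltf stood at 363 CPM and Lcn2 at 704 CPM in young replicate 3 of experiment 2, where the next young libraries had 51.4 and 41.6 CPM. Lcn2 stood at 457 CPM in Auranofin replicate 3, where the next library had 62.5 CPM. Both are the libraries low in ovarian genes. Ltf stood at 311 CPM in TRi-1 replicate 4, where the next had 101 CPM.

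The calprotectin genes and Ngp gave the other 3. S100a8 stood at 4180 CPM in Auranofin replicate 4, where the next library had 1060 CPM. S100a9 stood at 5.70 CPM in young replicate 3 of experiment 2, where the next young library had 2.20 CPM. Ngp stood at 3.70 CPM in young replicate 4 of experiment 1, where the next had 0.904 CPM.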

How the results depend on the processing

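The counts of members called for TRi-1, for Auranofin and for both differences between effects stayed at 0 under every alternative run. With age in experiment 1 the count was 7 and ran from 5 to 9, and over both experiments it was 7 and ran from 7 to 9. With age in experiment 2 it was 6 and became 3 under limma-voom, 5 without aged replicate 3, and ran from 5 to 7 over the other alternatives. TRi-1 against young went from 6 to 3 in 1 fit of all 27 libraries, and ran from 3 (without TRi-1 replicate 3) to 7 (without TRi-1 replicate 4). Why these counts moved was not tested.

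Under limma-voom these log2 fold changes turned sign: Lcn2 to 1.83 with age in experiment 2 and to 1.82 for Auranofin against young, Retnlg to 0.01 under TRi-1, and Ltf, Lcn2 and Cxcr2 to -0.73, -0.02 and 0.46 under Auranofin. The differences between effects turned for Ltf (0.50 for age, -1.06 for treatment) and Cxcr2 (-0.07 for treatment). Without the 2 libraries low in ovarian genes, Lcn2 turned to 1.99 with age in experiment 2, -0.50 under Auranofin and 1.49 for Auranofin against young, and Ltf to -0.80 under Auranofin. The differences became 0.49 (Ltf) and 0.01 (Lcn2) for age, and -0.87 (Ltf) and -0.17 (Lcn2) for treatment.

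Replicate numbers did not pair the samples: of 25 same-numbered pairs, 6 had a correlation over 0.1, in a range of -0.25 to 0.43. With the number as a replicate block, Cxcr2 was gained with age in experiment 2 (2.85, adjusted p = 0.0295) and Retnlg lost in experiment 1 (adjusted p = 0.185). S100a9, Ngp and Retnlg (adjusted p = 0.0808, 0.142 and 0.178) were lost for TRi-1 against young, and Mmp9 (0.0638) for Auranofin against young. Members called were 6 for age in experiment 1, 7 in experiment 2 and 3 for TRi-1 against young. Lcn2 became 1.25 with age in experiment 2, -0.03 under Auranofin and 1.23 for Auranofin against young, Retnlg 0.28 under TRi-1, and Ltf -0.65 under Auranofin. The differences became 0.59 (Ltf) for age and -0.74 (Ltf) and -0.41 (Cxcr2) for treatment.

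Leaving out 1 library at a time, results that turned sign ranged as follows. With age in experiment 2 Ltf ran from -0.21 to 1.82 and Lcn2 from -1.59 to 2.03. Under TRi-1 Camp ran from -1.25 to 0.24, Ltf from -0.60 to 0.87 and Retnlg from -0.65 to 1.09. Under Auranofin S100a8 ran from 0.00 to 1.58, Ltf from -0.80 to 0.71, Lcn2 from -0.50 to 1.55 and Cxcr2 from -0.52 to 0.35. For Auranofin against young Ltf ran from -0.72 to 2.15 and Lcn2 from -1.76 to 3.22. The age difference ran from -1.54 to 0.50 for Ltf, -0.60 to 1.32 for Retnlg and -3.66 to 0.01 for Lcn2. The treatment difference ran from -0.87 to 0.90 for Ltf, -0.59 to 1.33 for Retnlg, -0.17 to 1.83 for Lcn2, -0.04 to 0.43 for Mmp9 and -1.11 to 1.26 for Cxcr2.

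All-gene counts that moved by over 1.5 times under another tool, filter or set of libraries were as follows. TRi-1 went from 67 to 587 (DESeq2), 167 (no filter), 172 (mean of at least 5 CPM), 0 (only the groups compared), 2 (all 27 libraries) and 1 (replicate block). Auranofin went from 3 to 76 (DESeq2), 33 (limma-voom), 10 (all 27 libraries) and 11 (replicate block). Age in experiment 2 went from 1705 to 2642 (limma-voom). The age difference went from 0 to 172 (DESeq2) and 33 (limma-voom), and the treatment difference from 3 to 93 and 30. A mean of at least 5 CPM gave 6 and 5, and leaving out the low-ovary pair 1 and 5, for these differences, and the replicate block gave 1 for the treatment difference. Auranofin against young went from 1464 to 2329 (DESeq2), 2677 (limma-voom), 733 (only the groups compared) and 2398 (all 27 libraries), and TRi-1 against young from 3371 to 2229 (replicate block). Leaving out 1 library at a time, TRi-1 ran from 0 (without aged replicate 3, among others) to 164 (without aged replicate 2), the age difference from 0 to 19 (without young replicate 4 of experiment 2) and the treatment difference from 2 to 10 (without Auranofin replicate 4). Auranofin against young had 906 without Auranofin replicate 1. Depth limits the young values of Cxcr2 (30 counts over the group in experiment 2), Camp (26) and Ngp (0).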
